A study of Mus musculus with 15 samples.

Results

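The lists of decreased H2A.X domains from mouse embryonic stem cells in 2i/LIF were set against those from the same kind of cells in serum cultures titled S. The rule that picks the lists uses culture and title and no measured value: 3 of 2i/LIF (lines 34, 35 and 37) and 2 of Serum/LIF S (lines 35 and 37), 5 of the 10 lists analysed in a series of 15 samples. They hold 9087 of the 23031 domains of all lists, of which 156 are S domains. The other 5 lists are of Serum/LIF XS (lines 30, 31 and 32) and of 2i/LIF followed by Serum/LIF (lines 34 and 37). The S sample of line 34 was not analysed here, so only lines 35 and 37 can be paired.

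All cells were embryonic stem cells derived from blastocysts of the cross 129S6 X C57B6, of either sex, and the sex of each line is not among the labels. The 2i/LIF medium held N2, B27, LIF and a pair of inhibitors: PD0325901 (1 µM), which blocks Mek, and CHIR99021 (3 µM), which blocks Gsk3. The serum cultures held fetal bovine serum and LIF and stood on irradiated mouse embryonic fibroblast feeders, a cell type that the 2i/LIF protocol does not mention. Lists of domains hold no expression, so neither the stem cell identity nor the share of feeder chromatin could be checked, and the part of feeders in the results was not tested. A number in a title was read as a cell line; that each is a separate line, and that replicates are separate cultures, is not stated.

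H2A.X is a variant of the core histone H2A that sits in a minority of nucleosomes throughout the genome and is known for the phosphorylated form, γH2A.X, that marks DNA double-strand breaks. Embryonic stem cells in serum are a mixed population in which Erk signalling pushes toward differentiation, whereas blocking Mek and Gsk3 holds cells in a more uniform naive state. Native ChIP-seq recovers H2A.X nucleosomes from nuclease-digested chromatin without crosslinking, here with 5 µg of antibody per experiment. The series asks how the pattern of H2A.X deposition differs between cultures.

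A list gives regions that its name calls decreased against a control. The state written beside every domain instead names the sample as enriched, and a signed value of undefined meaning, in the fifth column, was above 0 in all 26 and all 130 S domains. In the 2i/LIF lists it was above 0 in 51 of 2600, 48 of 3184 and 21 of 3147 domains (lines 34, 35 and 37). The 2 kinds of list may therefore not report the same direction of change, and all comparisons below describe where listed domains lie and how large they are, not how much H2A.X they carry. All positions are 1-based in mm9, on a grid of 1300 bp bins. Shares of the genome refer to the autosomal span of 2412.2 Mb between the outermost bins of any list on the 19 autosomes.

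S domains were short and 2i/LIF domains long, with no overlap of the medians. The median S domain measured 29.2 kb in line 35 and 44.2 kb in line 37. The median 2i/LIF domain measured 191 kb in line 34, 363 kb in line 35 and 221 kb in line 37. Group means were 36.7 ± 10.6 kb (SD, n = 2) and 258 ± 91.7 kb (SD, n = 3). Within a line, the 2i/LIF median was 333 kb longer in line 35 and 177 kb longer in line 37. The few 2i/LIF domains whose signed value was above 0, as in all S domains, were short too. Their medians were 31.2, 8.45 and 3.9 kb (51, 48 and 21 domains of lines 34, 35 and 37). The contrast in length thus lay in the 2i/LIF domains at or below 0, with medians of 196, 369 and 223 kb.

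The longest S domain of line 35 was 91 kb and that of line 37 475.8 kb, whereas the longest 2i/LIF domains reached 7.14, 7.82 and 5.38 Mb. No S domain exceeded 500 kb, and 34 of the 130 in line 37 but none of the 26 in line 35 exceeded 100 kb. Domains over 1 Mb numbered 138, 571 and 188 in 2i/LIF lines 34, 35 and 37 and held 25.9%, 52.4% and 26.1% of the covered length. Short domains of at most 13 kb made up 38.5% of the S list of line 35 and 16.9% of that of line 37, compared with 1.92%, 1.60% and 1.27% of the 2i/LIF lists. Line 35 in 2i/LIF stood apart from the other 2i/LIF lists by its long domains: the middle covered base lay in a domain of 1061 kb there, against 525 and 532 kb in lines 34 and 37. In the S lists that length was 55.9 kb (line 35) and 139 kb (line 37).

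**Figure D1:**
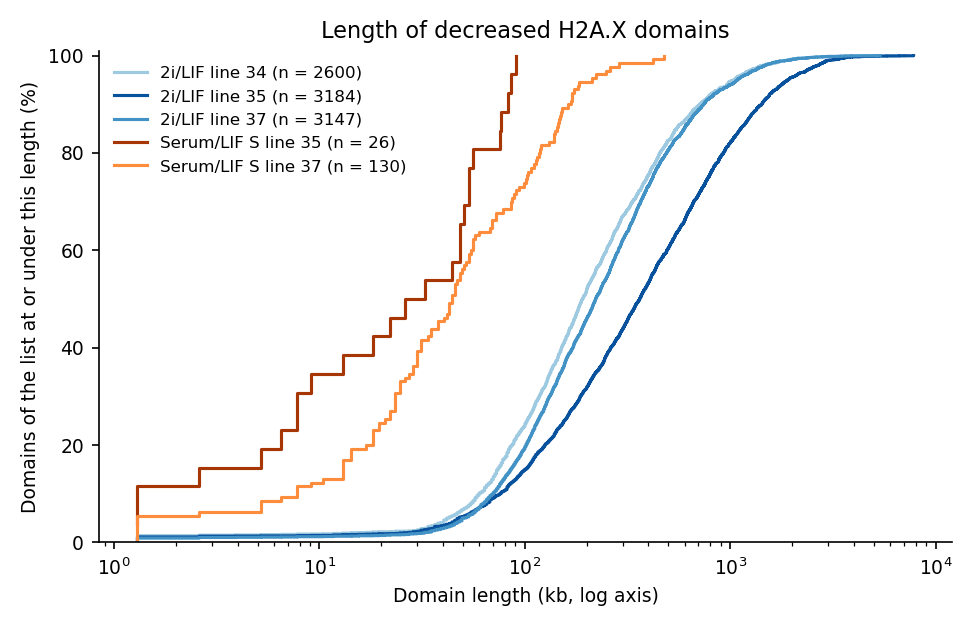
Cumulative share of the domains of each list (y axis, %) at or under a given length (x axis, kb, log axis), 1 curve per list. The S curves lie to the left of all 2i/LIF curves, with medians of 29.2 and 44.2 kb against 191 to 363 kb.

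With 3 lists against 2, no two-sided exact permutation test can give a p below 0.2. All 7 differences between the groups reached that value and kept it after Benjamini-Hochberg adjustment. That value shows only that the lists of the groups did not overlap. The medians differed by 222 kb and the length-weighted medians by 608 kb, without being able to reach significance in this design. The number of domains and the covered length also did not overlap, with 2899 more domains and 1262 Mb more in 2i/LIF. Both differences lay in the 2i/LIF domains whose signed value was at or below 0. Those above 0 numbered 51, 48 and 21 (lines 34, 35 and 37), against 26 and 130 S domains (lines 35 and 37). They covered 0.0646%, 0.0379% and 0.0155% of the span, against 0.0382% and 0.381%.

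The median gap between neighbouring domains was longer in both S lists than in any 2i/LIF list, but the S list of line 35 also held many short gaps. Longer gaps follow in part from fewer domains, 26 and 130 in the S lists against 2600 to 3184 in 2i/LIF on the same span. The gap is therefore not a result separate from the number of domains. The median gap between neighbours was 155 kb, 110.5 kb and 181 kb in 2i/LIF lines 34, 35 and 37. In the S lists it was 1.56 Mb (line 35) and 5.20 Mb (line 37). Gaps over 1 Mb made up 11.9%, 0.632% and 9.27% of the 2i/LIF gaps and 52.9% and 69.4% of the S gaps. Gaps under 100 kb made up 34.2%, 44.2% and 29.3% of the 2i/LIF gaps, 14.4% of the S gaps of line 37 and 35.3% (6 of 17) of those of line 35. The lower quartile of the gap was 55.9 kb in S line 35, below the 75.4, 65 and 88.4 kb of 2i/LIF lines 34, 35 and 37, and 361 kb in S line 37. The group means were 148.6 ± 35.5 kb (SD, n = 3) and 3379 ± 2575 kb (SD, n = 2), a difference of -3231 kb (exact permutation test, p = 0.2). The size of this difference rested on the S list used: it was -1410 kb without S line 37 and -5051 kb without S line 35. Its direction could not change, because the groups did not overlap.

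Some S domains formed groups. With domains less than 1 Mb apart joined, the 130 domains of line 37 formed 96 places, 78 of them with a single domain. There were 3 groups of 4 or more, 18 domains in all: 8 domains over 2.25 Mb of chromosome 4 (144940901 to 147187300), 6 over 1.40 Mb of chromosome 13 (65479701 to 66878500) and 4 over 0.335 Mb of chromosome 5 (14873301 to 15208700). The 26 domains of line 35 formed 18 places, 13 of them with a single domain. Line 35 had 1 group of 4, the domains on chromosome 5 from 14903201 to 15223000, which overlaps that of line 37. The 2i/LIF lists covered 1.62%, 1.04% and 1.97% of the chromosome 4 group and 0.279%, 0.186% and 0.372% of the chromosome 13 group (lines 34, 35 and 37). In these groups the S domains themselves filled 32.2% and 5.20%, and stretches of at least 100 kb that none of the 10 lists covers filled 64.4% and 85.4%. On chromosome 5 they differed among themselves: line 35 covered 48.4% of the group and lines 34 and 37 none of it.

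The authors' score of a domain, divided by its number of bins, never exceeds 1. It was lower in the S lists. Its median was 0.40 in S line 35 and 0.58 in S line 37, and 0.87, 0.72 and 0.79 in 2i/LIF lines 34, 35 and 37. The means were 0.488 ± 0.124 (SD, n = 2) and 0.795 ± 0.0744 (SD, n = 3), a difference of 0.306 (exact permutation test, p = 0.2) with no overlap of lists. Within a line the difference was 0.321 (line 35) and 0.216 (line 37). Among the few 2i/LIF domains whose signed value was above 0, the medians were 0.85, 0.57 and 0.59 (lines 34, 35 and 37). For these the lists overlapped: the 0.57 of 2i/LIF line 35 lay below the 0.58 of S line 37. Within line 37 the medians were then 0.59 and 0.58, and within line 35 they were 0.57 and 0.40. Domains with less than 0.5 per bin made up 61.5% and 38.5% of the S lists but 1.04%, 2.42% and 1.27% of the 2i/LIF lists.

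The shortest domains differed from the others in opposite directions in the S and 2i/LIF lists. In all 3 2i/LIF lists the domains of at most 13 kb had the lowest score per bin, with medians of 0.58, 0.54 and 0.53, and the next class, up to 100 kb, had 0.85, 0.74 and 0.80. These shortest domains are 1.92%, 1.60% and 1.27% of the lists. Over the longer classes the lists parted: domains over 1 Mb had 0.93 in line 34, 0.84 in line 37 and 0.71 in line 35. Across all domains of a list, Spearman's correlation of length with score per bin was 0.288, 0.00693 and 0.0927 in 2i/LIF lines 34, 35 and 37 and -0.382 and -0.146 in S lines 35 and 37, given as a description. In the S lists the shortest class was the highest, at 0.68 in both, and the class up to 100 kb had 0.34 (line 35) and 0.59 (line 37). In line 37 the S domains of 100 to 500 kb had a median of 0.49. Short domains of the S and 2i/LIF lists were thus closer in score than longer ones, where every 2i/LIF median stood above the S medians of its class. A class of a list holds as few as 10 domains (the shortest of S line 35), and domains of a list are not replicates, so no test was made.

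**Figure D2:**
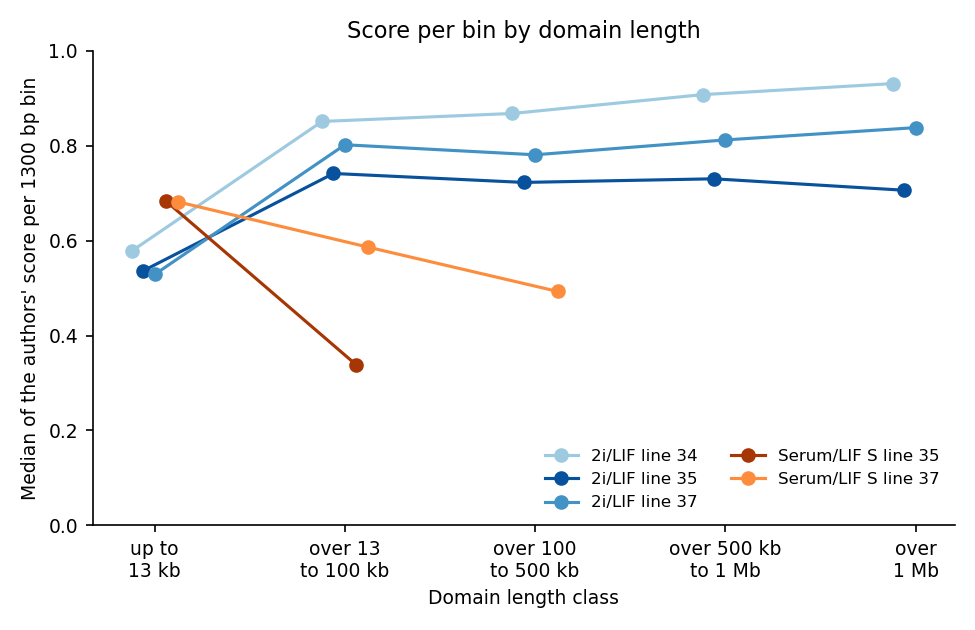
Median of the authors' score per 1300 bp bin (y axis, from 0 to 1) in 5 classes of domain length (x axis), 1 line per list. The S lists start at 0.68 for the shortest domains and fall with length, while the 2i/LIF lists rise from 0.53 to 0.58 in that class to 0.74 to 0.85 in the next, after which line 35 falls to 0.71 and line 34 rises to 0.93 over 1 Mb.

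The highest scores per bin among S domains of 5 bins or more were 0.962, on chromosome 11 from 3025101 to 3100500 in line 35, and 0.998, on chromosome 4 from 3005601 to 3018600 in line 37. Both lie near the start of the span of their chromosome, and both places are listed in both lines. The lowest were 0.197, on chromosome 5 from 15115101 to 15141100 in line 35, and 0.0847, on chromosome 14 from 42530801 to 42564600 in line 37. The longest S domain of all, on chromosome 17 from 30585101 to 31060900 in line 37, had a high score of 0.910.

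2i/LIF domains covered all 19 autosomes more than either S list did, on every chromosome. Coverage per chromosome ran from 21.5% (chromosome 3) to 52.6% (chromosome 11) in 2i/LIF line 34, from 27.4% (chromosome 6) to 62.0% (chromosome 11) in line 37 and from 71.2% (chromosome 7) to 83.9% (chromosome 15) in line 35. The highest value was 2.45 and 2.27 times the lowest in lines 34 and 37, and 1.18 times in line 35. The S domains of line 37 lay on all autosomes, from 2 on chromosomes 11, 16, 18 and 19 to 13 on chromosome 4, and covered between 0.105% (chromosome 11) and 1.03% (chromosome 17). Chromosome 11, the most covered in 2i/LIF line 37, was thus the least covered in its S list. That rests on 2 domains, and chromosomes 18 (0.114%) and 16 (0.115%) were close. The pattern was absent in S line 35, where 1 domain covered 0.0635% of chromosome 11 and 10 chromosomes had no domain. The S domains of line 35 lay on 9 autosomes, with most, 6, on chromosome 5, and none on chromosomes 3, 6, 7, 9, 10, 12, 13, 14, 18 and 19.

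Mouse autosomes carry the centromere at their start. Toward the other end, the coverage in 2i/LIF rose in lines 34 and 37. With each chromosome span divided into 10 equal deciles, it went from 22.4% in the first to 58.4% in the last in line 34, from 38.2% to 61.7% in line 37 and from 74.3% to 82.6% in line 35. In lines 34 and 37 most of the rise fell in the last 2 deciles, with 34.5% and 44.5% in decile 8 and 47.9% and 56.9% in decile 9. S domains had another pattern: 8 of the 26 in line 35 and 25 of the 130 in line 37 had their midpoint in the first decile, and 4 and 26 in the last. The outer deciles thus held 46.2% and 39.2% of the S domains, against 19.2%, 18.4% and 19.8% of the 2i/LIF domains.

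**Figure D3:**
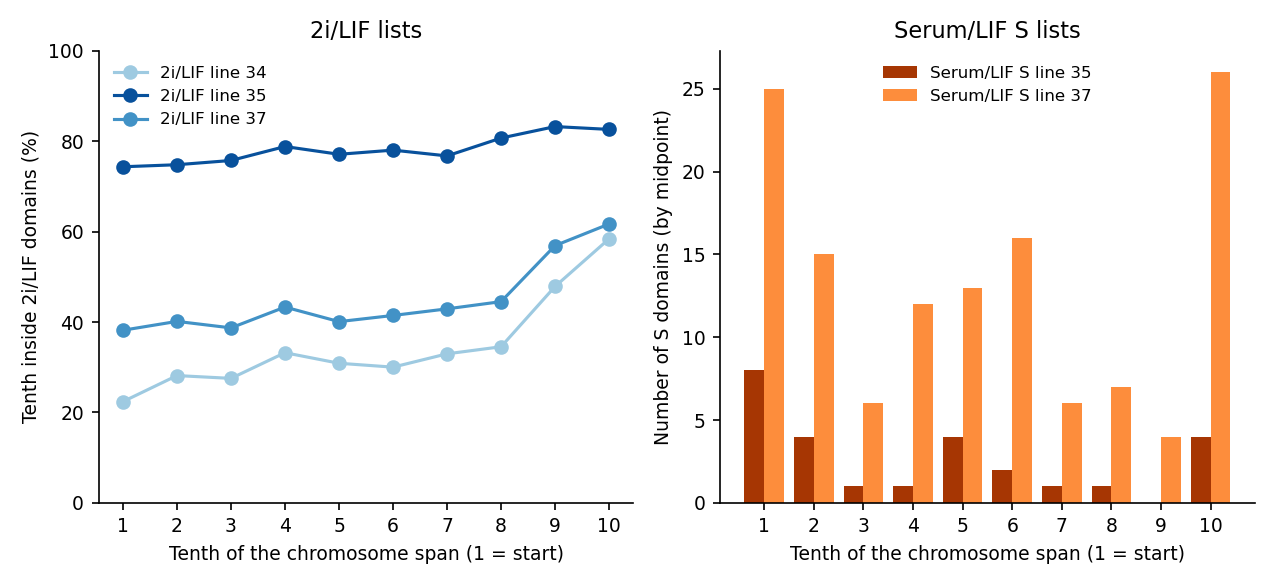
Left, share of each decile of the chromosome spans inside 2i/LIF domains (y axis, %) for 3 lists. Right, number of S domains whose midpoint lies in each decile (y axis) for 2 lists. The 2i/LIF lines 34 and 37 end at 58.4% and 61.7%, and the S domains of line 37 peak in the first (25) and the last decile (26).

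S domains were concentrated at chromosome starts. Domains beginning in the first 5 Mb of a span made up 15.4% of the S list of line 35 and 10.8% of that of line 37, against 3.96%, 4.77% and 4.29% in 2i/LIF lines 34, 35 and 37. The means were 13.1% ± 3.26 (SD, n = 2) and 4.34% ± 0.409 (SD, n = 3), or -8.74 points for 2i/LIF minus S, without overlap (exact permutation test, p = 0.2). Most of these S domains lay in the first 500 kb: 4 domains on 4 chromosomes in line 35 and 11 domains on 10 chromosomes in line 37. This window is 0.393% of the span but held 24.7% and 8.38% of the S length. It was covered 62.9 and 21.3 times as densely as the span as a whole in the S lists, and 0.747, 0.733 and 0.698 times as densely in 2i/LIF lines 34, 35 and 37. On chromosomes 4, 11, 16 and 17 both S lists had a domain there. An example is chromosome 11, where the S domain of line 37 ran from 3000401 to 3101800 with a score of 0.959 per bin and that of line 35 from 3025101 to 3100500. Some S domains set the start of a span, with no list outside the S cultures beginning at the same bin: this was so on 1 chromosome in line 35 and 4 in line 37. Counted from base 3000401 on every chromosome, the numbers in the first 500 kb were the same, 4 and 11.

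Although 2i/LIF domains covered 34.6%, 78.2% and 44.8% of the span (lines 34, 35 and 37) and the S domains 0.0382% and 0.381% (lines 35 and 37), S domains lay mostly where no 2i/LIF domain was listed. Of the 26 S domains of line 35, 3 touched a domain of 2i/LIF line 34 (11.5%), 7 one of line 35 (26.9%) and 3 one of line 37 (11.5%). Windows of the same lengths, over all their possible positions in the span, touched these lists in 38.0%, 82.3% and 49.0% of cases. Of the 130 S domains of line 37, 33 touched line 34 (25.4%), 55 line 35 (42.3%) and 33 line 37 (25.4%), against 40.5%, 84.9% and 52.2% of such windows. All 6 pairs were below the share of windows. The pairs share lists, so they are not 6 independent observations and no test was made. The S list of line 37 overlapped its own 2i/LIF list no more often than that of line 34, and both S lists touched 2i/LIF line 35, the widest, most often.

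**Figure D4:**
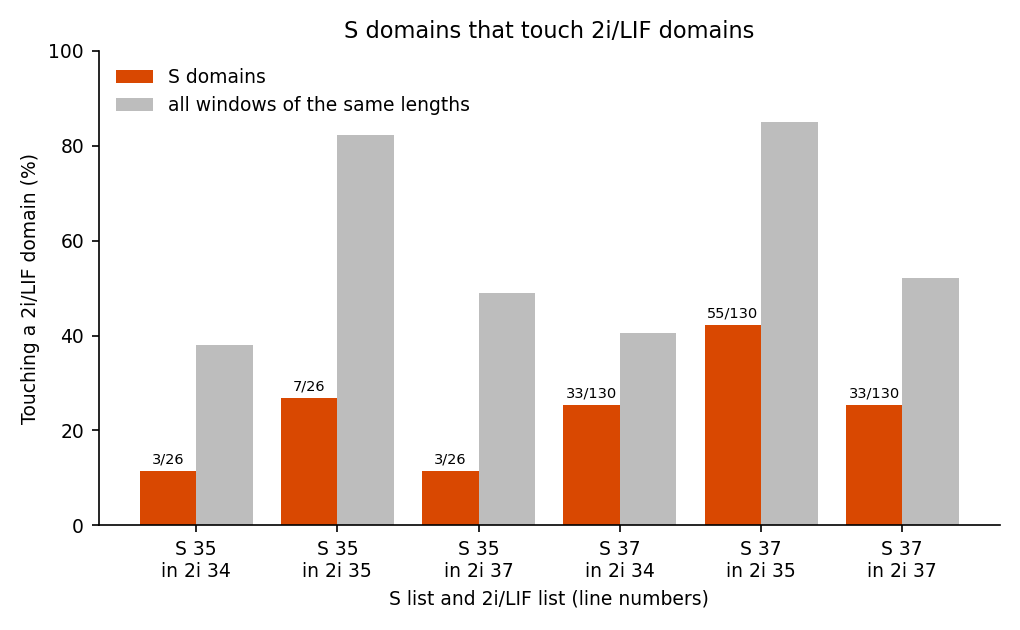
Share of S domains that touch a 2i/LIF domain by at least 1 bin (orange, counts above the bars) and share of all windows of the same lengths that do (grey), for the 6 pairs of an S list and a 2i/LIF list. The orange bars reach 11.5% to 42.3% and the grey bars 38.0% to 84.9%.

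A total of 19 of 26 S domains (73.1%) in line 35 and 66 of 130 (50.8%) in line 37 touched none of the 3 2i/LIF lists, compared with 16.1% and 13.7% of windows of their lengths. Domains touching all 3 were 1 of 26 and 20 of 130 (15.4%), against 34.3% and 37% of windows. By length, 69.4% and 64.9% of the S bins were in no 2i/LIF list, as was 20.05% of the span. The share of the span in all 3 2i/LIF lists was 30.7%, and that of the S length 0.141% in line 35 and 4.15% in line 37. Averaged over the 6 pairs, 16.3% ± 10.1 (SD over pairs) of the S length was inside 2i/LIF domains, 36.2 ± 12.3 percentage points less than the span. All pairs lay below the span, with differences from -52.8 to -22.4 points. The few 2i/LIF domains whose signed value was above 0 went the other way. They covered 0.0646%, 0.0379% and 0.0155% of the span (lines 34, 35 and 37). They held 6.64%, 16.1% and 0.141% of the S length of line 35 and 1.53%, 1.68% and 0.849% of that of line 37. These shares rested on few domains: S line 35 touched 2, 4 and 1 of them, and S line 37 touched 10, 10 and 5. In S line 35 nearly all of the 6.64% was on chromosome 17 from 3000401 to 3086200. Nearly all of the 16.1% was in the chromosome 5 group from 14903201 to 15223000. The 0.141% was the single bin on chromosome 4 from 146679001 to 146680300. The shortfall thus lay in the 2i/LIF domains at or below 0.

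The longest S domains that touched no 2i/LIF list were all from line 37. They lay on chromosome 2 from 150035601 to 150295600 (260 kb, score 0.423 per bin), on chromosome 13 from 62453301 to 62702900 (249.6 kb, 0.482) and on chromosome 4 from 146772601 to 146993600 (221 kb, 0.836). The next were on chromosome 3, from 15354301 to 15566200 (211.9 kb, 0.392) and from 105929201 to 106113800 (184.6 kb, 0.664). None of these 5 was in the S list of line 35, whose own longest domain, on chromosome 5 from 26332801 to 26423800 (91 kb), was listed with the same ends in line 37 and in no 2i/LIF list.

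The longest S domains that touched all 3 2i/LIF lists were likewise from line 37. The one on chromosome 17 from 30585101 to 31060900 (475.8 kb) was covered over 10.7%, 12.0% and 100% by 2i/LIF lines 34, 35 and 37. On chromosome 4 from 144940901 to 145229500 (288.6 kb) these lists covered 12.2%, 4.95% and 14.9%, and the S list of line 35 covered 40.1%. On chromosome 14 from 69925701 to 70093400 (167.7 kb) they covered 100%, 44.2% and 22.5%. The domain on chromosome 12 from 21529301 to 21668400 (139.1 kb) was covered over 100%, 100% and 18.7%, and that on chromosome 13 from 50124101 to 50211200 (87.1 kb) fully by each.

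Some S domains reappeared in 2i/LIF with identical ends. This was so for 4 of 26 domains in line 35 and 15 of 130 in line 37 in at least 1 2i/LIF list, and for 1 and 7 in all 3. Of those 7, 5 were single bins, on chromosome 4 from 146679001 to 146680300, chromosome 7 from 11464701 to 11466000 and from 16010801 to 16012100, and chromosome 13 from 65479701 to 65481000 and from 66474201 to 66475500. The others were the 87.1 kb domain on chromosome 13 and a domain of 31.2 kb on chromosome 9 from 88904401 to 88935600. Apart from domains with identical ends, S edges fell on a 2i/LIF edge in 4% to 9.09% of cases over the 6 pairs, whereas 0.280% to 0.343% of all bin edges are edges of a 2i/LIF domain.

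Seen from the 2i/LIF side, few domains were touched by S domains, and relatively more of the short ones. S domains of either line touched 35 of 2600, 61 of 3184 and 36 of 3147 domains of 2i/LIF lines 34, 35 and 37 (1.35%, 1.92% and 1.14%). Among 2i/LIF domains of at most 13 kb they touched 7 of 50, 7 of 51 and 7 of 40. Of the 2i/LIF domains whose signed value was above 0, as it is in all S domains, 10 of 51, 10 of 48 and 5 of 21 were touched. Of those at or below 0, the counts were 25 of 2549 (0.981%), 51 of 3136 (1.63%) and 31 of 3126 (0.992%). The short touched domains include, in each list, the same 5 single bins named above. The 2 sets overlap too: the bins on chromosome 4 from 146679001 and on chromosome 13 from 65479701 were above 0 in every 2i/LIF list. Each of the others was above 0 in at least 1 list. These counts are therefore not separate trends. The longest domain of each 2i/LIF list held no S domain. These were on chromosome 2 from 166764001 to 173904900 in line 34, on chromosome 14 from 90628201 to 98447700 in line 35 and on chromosome 2 from 168062701 to 173439500 in line 37.

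2i/LIF domains also covered less of the flanks of S domains than of the span, by 27.8 points on average. Without the stretches that the 5 lists of other cultures leave empty, the mean difference was -2.22 points, positive in 3 of 6 pairs. This kept 36.0% and 38.9% of the flanks of S lines 35 and 37. The difference stayed negative for 2i/LIF line 35 (-9.32 and -15.4 points) and was positive for line 34 (8.10 and 2.95 points). In the flanks up to 100 kb from an S domain, 2i/LIF lines 34, 35 and 37 covered 17.4%, 31.5% and 21.7% around the S domains of line 35 and 17.8%, 37.7% and 21.9% around those of line 37. These shares were 24.7% ± 8.18 on average (SD over 6 pairs), 27.8 ± 12.6 points below the span. Coverage rose with distance. Around S domains of line 37 it was 11.8%, 25.04% and 13.8% within 13 kb, 27.0%, 54.8% and 33.1% at 104 to 208 kb and 38.9%, 71.1% and 45.4% at 520 to 1040 kb. The last values compare with 34.6%, 78.2% and 44.8% over the span. Around S domains of line 35 it was 6.92%, 15.7% and 8.39% within 13 kb and 41.4%, 71.3% and 53.8% at 520 to 1040 kb.

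**Figure D5:**
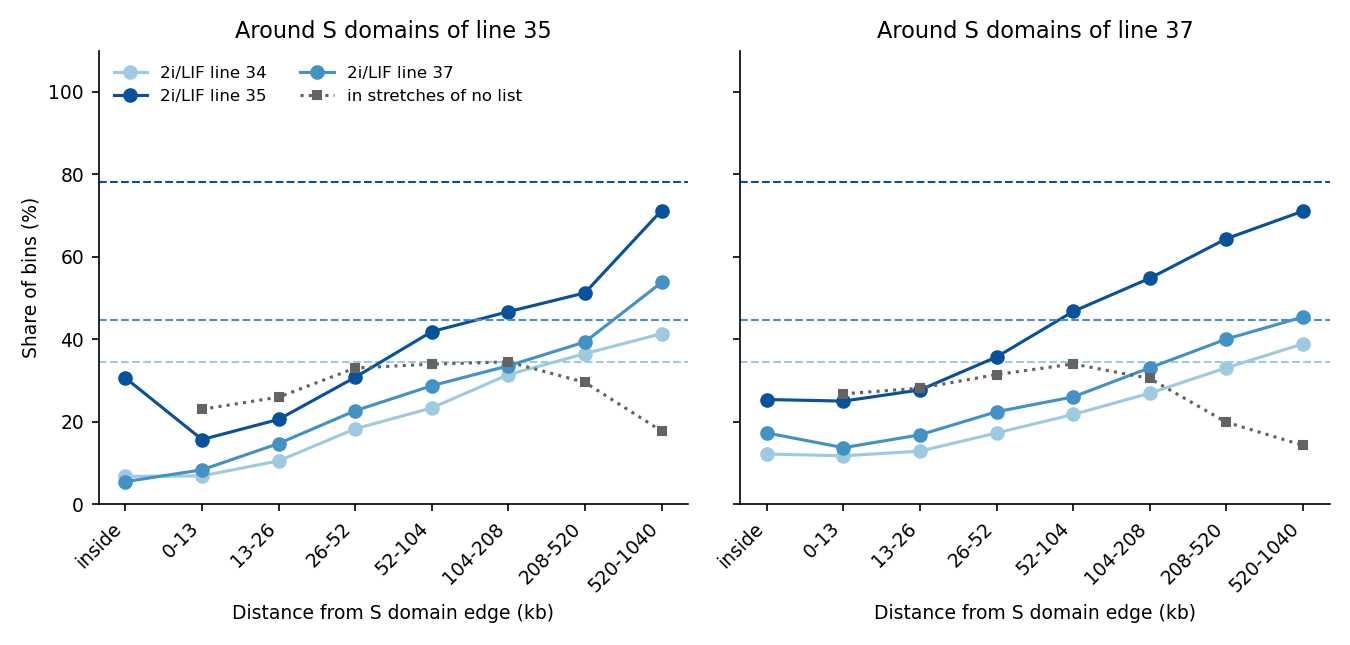
Share of bins (y axis, %) inside the domains of 3 2i/LIF lists, within S domains and at increasing distance from their edges (x axis, kb), for the S lists of line 35 (left) and 37 (right). Dashed lines give each 2i/LIF list's share of the span, and the grey dotted line gives bins in stretches of at least 100 kb that none of the 10 lists covers. For line 37 coverage by 2i/LIF line 35 climbs from 25.04% within 13 kb to 71.1% at 520 to 1040 kb.

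Single S domains differed in this. The median distance to the nearest 2i/LIF domain was 152, 31.2 and 91.0 kb for the S domains of line 35 (2i/LIF lines 34, 35 and 37) and 120, 16.9 and 86.4 kb for those of line 37. The farthest was 5838 kb from 2i/LIF line 34, in the S list of line 37. No bin of the 100 kb flanks was in any 2i/LIF list for 9 of 26 and 35 of 130 S domains. At the other extreme, 2 of 26 and 13 of 130 had more than 50% of their flanks inside each of the 3 lists. One of these, on chromosome 2 from 27350701 to 27358500 in line 35 (7.8 kb, score 0.945 per bin), was in no 2i/LIF list itself, with flanks covered over 100%, 100% and 80.9%.

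Stretches that other lists leave empty moved with this result. Stretches of at least 100 kb in none of the 8 lists outside the S cultures made up 6.505% of the span but held 63.4% (line 35) and 53.4% (line 37) of the S length. Of the S domains, 14 of 26 (53.8%) and 50 of 130 (38.5%) lay wholly within such stretches, against 5.66% and 4.99% of windows of their lengths. S domains inside and outside them had median scores per bin of 0.38 and 0.47 in line 35 and of 0.56 and 0.59 in line 37. Because the 8 lists include those of 2i/LIF, the comparison was repeated with stretches defined by the 5 lists of other cultures alone. These are of Serum/LIF XS and of lines 34 and 37 in serum after 2i/LIF. Stretches of at least 100 kb that these 5 lists leave empty were left out. This kept 20.6% and 33.0% of the S length and 87.0% of the span. For S line 35 it left 189.8 kb. The difference between S length and span inside 2i/LIF domains was then -15.6 points in place of -36.2, negative in all 6 pairs. Its size was uneven, from -38.0 points (S line 37 in 2i/LIF line 35) to -5.88 points (S line 35 in 2i/LIF line 34). The difference of the flanks ran from -15.4 to 8.10 points over the pairs. Among S domains of the higher-scoring 50% and 2i/LIF domains of the higher-scoring 50%, the differences were -20.1 and -11.0 points. This filter also lowered the covered length of 2i/LIF minus S from 1262 to 684.7 Mb. Less 2i/LIF coverage leaves room for fewer points, so these values do not show a weaker shortfall. What leaves these stretches empty was not tested.

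Both S lists share a set of places, and line 37 adds many more. Of the 26 domains of line 35, 23 were touched by line 37 (88.5%), whereas 22 of the 130 domains of line 37 were touched by line 35 (16.9%). The shared 0.846 Mb were 91.9% of the length of line 35 and 9.21% of that of line 37. In line 37, the 22 shared and the 108 other domains had median lengths of 48.1 and 43.5 kb and median scores per bin of 0.53 and 0.59. For the 12 domains with identical ends in both lists, the score per bin was higher in line 37 in 11, with medians of 0.48 (line 37) and 0.39 (line 35). An example is chromosome 16 from 3231801 to 3285100, with 0.396 in line 35 and 0.749 in line 37. The exception was chromosome 5 from 15005901 to 15024100, with 0.275 and 0.186.

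The 3 S domains of line 35 without a counterpart in line 37 were on chromosome 8 from 69897101 to 69898400 and on chromosome 17 from 23169901 to 23218000 and from 33439901 to 33446400. Of these, the domain on chromosome 17 from 23169901 was fully inside domains of 2i/LIF lines 35 and 37 and had one of the lowest scores per bin, 0.2004. The other two touched no 2i/LIF list.

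Each 2i/LIF list held a larger share of the others' length than of the span. The list of line 35, which covers 78.2% of the span, held 96.6% of the length of line 34 and 97.7% of that of line 37. Line 37, at 44.8% of the span, held 90.1% of line 34 and 56.0% of line 35. Line 34, at 34.6% of the span, held 69.6% of line 37 and 42.7% of line 35. The longest domain of line 35 ran over 7.82 Mb of chromosome 14, with a score of 0.646 per bin, and was covered over 0.914% by line 34 and 11.5% by line 37. The longest domains of lines 34 and 37, both on chromosome 2, had scores of 0.948 and 0.935 and were covered over at least 96.4% by each of the other 2i/LIF lists.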

How the data were processed

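The submitters' processing notes name Bowtie2 (2.0.6) and the mm9 build for the H2A.X native ChIP-seq reads. How domains were called, against which control and whether libraries were pooled is not given in the sources used here. The 10 lists analysed, 1 per H2A.X sample used, were deposited by the authors with 2 columns of scores per domain: a signed score, used only for its sign, and a score that never exceeded the number of 1300 bp bins, divided here by that number. Groups came from the sample titles, and line numbers pair lines 35 and 37. Members, regions and lists were chosen with earlier results of these data known.

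Group differences were tested by two-sided exact permutation with Benjamini-Hochberg adjustment over 7 comparisons. Positions were compared bin by bin, and touching means sharing at least 1 bin. Without read counts, the depth behind a domain is unknown, and intervals that need it were left out. Regions were named from the 10 longest domains of each S list, the 5 longest touching all or none of the 2i/LIF lists, the 3 highest and lowest in score per bin among S domains of at least 5 bins, and the longest 2i/LIF domains. The report gives those its comparisons turn on. Groups of S domains, domains with identical ends and those at chromosome starts were picked after their values were seen. No gene was assigned and no sequence read, because the reference at hand is not mm9. The geometry code was tested on simulated data. Tools were scipy 1.17.1, numpy 2.4.6 and pandas 2.3.3 under Python 3.11.15, with plots drawn in matplotlib 3.10.9.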

Additional observations from a re-analysis of the deposited data

How the results depend on the processing

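None of 113 values from 18 alternative settings reversed one of the 10 results. For the median distance, which is never negative, the direction was fixed beforehand. This was also so on the log10 scale, where groups that do not overlap keep their order. The direction was likewise fixed where single lists were left out or the lines were paired, because the groups did not overlap and all pairs were negative. Such values add no support, and no p can fall below 0.2. Alternatives dropped domains under 10 kb, kept only the 50% of domains with the higher score per bin, merged neighbours, changed windows or backgrounds, left out single lists or paired the lines. The replicate block (lines 35 and 37, paired) gave 3087.5 domains, 1478 Mb, a median score difference of 0.269 and -37.5 points of S length. The values that moved by more than the SD over pairs were these. With the higher-scoring 50%, S length inside 2i/LIF domains differed from the span by -20.1 points and the flanks by -11.0 points. The median distance was 531 kb in place of 83.0 kb. The 2i/LIF lists covered less in that setting, which limits how far the points can fall. Flanks of 500 kb gave -14.3 points. Leaving out stretches empty in the 5 other lists, chosen after seeing the data, gave -15.6 and -2.22 points. The higher-scoring 50% also gave 1450 domains, 684.7 Mb and a gap difference of -24726 kb, which follow in part from fewer domains, a score difference of 0.149 and -16.0 points at chromosome starts. Without single lists, the results ranged from 2795.5 to 3087.5 domains, 952 to 1478 Mb, 169 to 255 kb (median length), 431 to 699 kb (length-weighted), -5051 to -1410 kb (gap), 0.218 to 0.394 (score), -11.0 to -6.43 points (chromosome starts), -41.8 to -29.2 and -33.3 to -20.0 points (S length and flanks), and 56.4 to 112 kb (distance).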
